A study of Mus musculus with 2 samples.

Results

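Oxidative phosphorylation is carried out by protein complexes of the inner mitochondrial membrane, and 4 of the 5 complexes are built from subunits of both the mitochondrial and the nuclear genome. The mRNAs of these subunits were compared between hepatic stromal cells of Foxf1fl/fl mice and of αSMACreER;Foxf1-/- mice. Members were the gene entries whose Ensembl identifier carries, in the GENCODE M21 annotation, a protein-coding symbol beginning with mt-Nd, mt-Co, mt-Cytb, mt-Atp, Ndufa, Ndufb, Ndufc, Ndufs, Ndufv, Uqcr, Cox4 to Cox8 or Atp5, or the symbols Sdha to Sdhd. This rule took 105 of 38320 entries. They divided into 13 mitochondrially encoded genes, 83 nuclear subunits, 8 assembly factors of complex I (Ndufaf1 to Ndufaf8) and Atp5s, which is named like the ATP synthase subunits but is not one of its structural subunits. One further symbol of the annotation, Cox4i1, was not analysed here.

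Both groups were adult male C57/Bl6 mice whose livers were injured with carbon tetrachloride (CCl4) for 5 weeks. Foxf1fl/fl mice carry 2 floxed Foxf1 alleles and no Cre, and αSMACreER;Foxf1-/- mice carry the same alleles together with a tamoxifen-activated Cre under the αSMA promoter, so that recombination is limited to cells that express αSMA. The labels name the second group αSMACreER;Foxf1 fl/fl, and Foxf1 itself is not analysed here. Liver cells that adhered to culture dishes within 2 h were collected, samples were pooled, and 1 library was sequenced per genotype. There are therefore no replicates, no test between genotypes is possible, and the values below describe 2 libraries. The interval printed beside a difference is an approximate 95% counting interval from estimated read numbers, which leaves out variation between mice and preparations. It also leaves out the choice of scaling between the libraries.

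As background, complex I (NADH dehydrogenase) and complex II (succinate dehydrogenase) pass electrons to ubiquinone, complex III (cytochrome bc1) passes them to cytochrome c, and complex IV (cytochrome c oxidase) passes them to oxygen. Complexes I, III and IV pump protons, and complex V (ATP synthase) uses the resulting gradient to make ATP. The mitochondrial genome encodes hydrophobic core subunits of complexes I, III, IV and V and none of complex II. It is transcribed by its own polymerase into long precursors that are cut into single mRNAs, whereas the nuclear subunits are transcribed one by one and imported as proteins.

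Levels are in FPKM, fragments per kilobase of transcript normalized to the number of mapped fragments, and are given as deposited. Differences are log2(FPKM + 0.1) in αSMACreER;Foxf1-/- minus Foxf1fl/fl after scaling by the median ratio between the libraries, so a positive value means a higher level in αSMACreER;Foxf1-/-. A gene past 1.5-fold, with a mean FPKM of at least 1, is counted as higher or lower. Of 12692 genes that reached this mean, 1627 (12.8%) were higher and 1671 (13.2%) were lower. With libraries scaled to equal sums of FPKM instead, the median gene moved to 0.21 and the split became 2777 higher (21.9%) and 1107 lower (8.72%). A total of 100 members reached the mean of 1, among them 12 mitochondrially encoded genes and 79 nuclear subunits.

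The libraries also differed in other cell types. The 11 hepatocyte markers with an entry were all lower in αSMACreER;Foxf1-/-, with a median of -1.54, and their sum went from 0.688% to 0.280% of all FPKM. These markers ranged from 44.3 to 2292 FPKM in Foxf1fl/fl and from 16.1 to 912 in αSMACreER;Foxf1-/-, with albumin the highest, and none of the 11 was at 0. Macrophage markers made up 1.28% and 1.15% of FPKM in Foxf1fl/fl and αSMACreER;Foxf1-/-, with 1 of 11 lower, and ranged from 54.9 to 1632 and from 41.1 to 1307 FPKM. Stellate cell and myofibroblast markers made up 0.0585% and 0.0952%, with 1 of 9 measured genes higher, and Lrat was near 0 (0.0778 and 0.111). Of the 9, 7 had a positive difference and 2 a negative one. These 2 were Acta2, which encodes αSMA, with 7.77 and 5.65 FPKM (-0.48), and Tagln with 5.51 and 4.31 (-0.37). Endothelial markers made up 0.0816% and 0.0909%, with none of 6 past 1.5-fold. In both libraries of cells labelled stromal, macrophage markers thus summed to more than stellate cell markers. In such bulk samples fewer cells of a type and less RNA per cell cannot be told apart, and the part of these shifts in the results below was not tested.

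Mitochondrially encoded mRNAs were higher in αSMACreER;Foxf1-/- cells. All 12 measured genes had a positive difference, 8 of them past 1.5-fold against 12.8% of all genes, and the median difference was 0.69 against 0.006 for all genes. None was lower. Together the mRNAs of the mitochondrial genome made up 5.95% of all FPKM in Foxf1fl/fl and 9.87% in αSMACreER;Foxf1-/-. The thirteenth gene, mt-Nd4l, was listed at 0 in both libraries.

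Nuclear subunits moved the other way. Of 79 measured, 76 had a negative difference, 24 were lower against 13.2% of all genes, and none was higher. Over all 12692 genes 6290 had a negative difference. Among 1227 other protein-coding genes in the middle range of subunit lengths (579 to 1241 bases), 1040 had one and 346 were lower. Most short genes thus moved in this direction. With equal sums of FPKM 3 nuclear subunits were lower, against 8.72% of all genes, and 1 was higher, so the count of lower subunits depends on the scaling. Their median was -0.51, and their share of FPKM was lower in αSMACreER;Foxf1-/- (1.41%) than in Foxf1fl/fl (1.71%). The difference between the mitochondrial and the nuclear median was 1.205 on the log2 scale, which no scaling between the libraries can change.

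**Figure D1:**
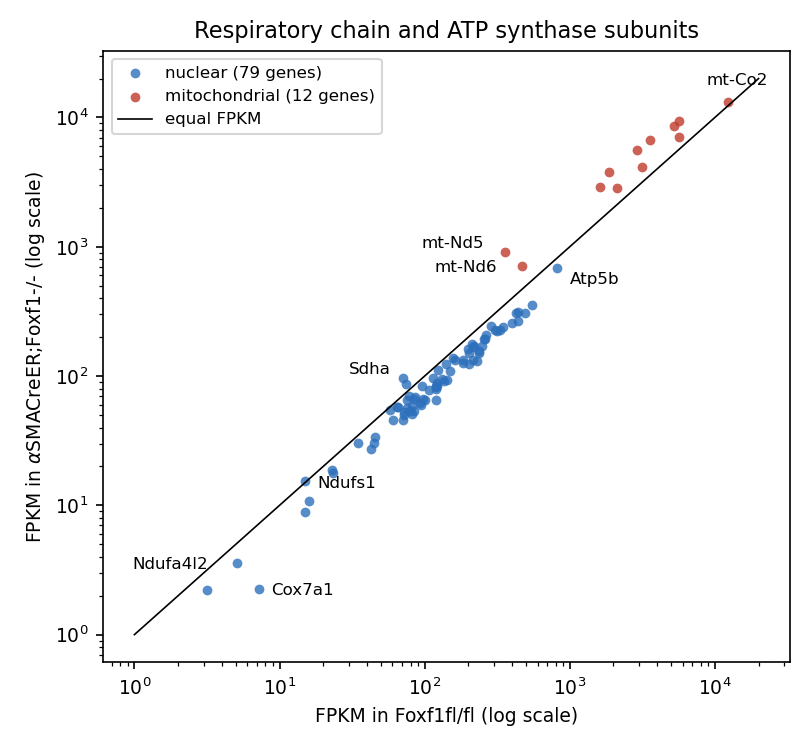
Each point is 1 subunit gene with a mean FPKM of at least 1, with its FPKM in Foxf1fl/fl on the x axis and in αSMACreER;Foxf1-/- on the y axis, both on log scales, and the line marks equal FPKM. The 12 mitochondrially encoded genes (red) lie above the line, and nearly all of the 79 nuclear subunits (blue) lie below it, with Sdha above.

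Some features of the mitochondrial chromosome bear on how its genes can be read. Neighbouring genes there overlap: mt-Atp8 and mt-Atp6 share 43 bases (chrM:7927-7969, GRCm38, plus strand), and mt-Nd4l and mt-Nd4 share 7 bases (chrM:10167-10173, plus strand). The ends of the upstream genes are shown because a read over the bases in capitals lies in both genes of a pair.
mt-Atp8 end, chrM:7910-7969: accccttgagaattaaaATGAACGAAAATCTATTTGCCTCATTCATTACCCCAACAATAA
mt-Nd4l end, chrM:10144-10173: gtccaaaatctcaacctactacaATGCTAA
In each the capitals run from the first base of the downstream gene to the last base of the upstream gene. mt-Nd5 and mt-Nd6 overlap by 14 bases, on opposite strands.

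Complex I has 7 mitochondrially encoded subunits, which form its proton-pumping membrane arm. mt-Nd5 had 355 FPKM in Foxf1fl/fl and 915 in αSMACreER;Foxf1-/-, a difference of 1.34 (interval 1.30 to 1.38), the largest among the 12. mt-Nd4 followed with 1876 and 3816 FPKM (0.999), and mt-Nd2 with 1605 and 2892 (0.82). These 3 genes were higher by more than 1.5-fold. mt-Nd6, the only mRNA encoded on the opposite strand, had 467 and 714 FPKM, a 1.501-fold difference that lay just past the threshold. mt-Nd1, with 3163 and 4172 FPKM (0.37), and mt-Nd3, with 2104 and 2831 (0.40), were below it.

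The subunit of complex III made in the mitochondrion, mt-Cytb, is the cytochrome b that holds the quinone sites. It stood at 3578 FPKM in Foxf1fl/fl and 6751 in αSMACreER;Foxf1-/-, a difference of 0.89 (0.87 to 0.91). Complex IV takes its 3 catalytic core subunits from the mitochondrion, and they differed from each other. mt-Co1, which carries the site of oxygen reduction, had 5650 and 9384 FPKM (0.71). mt-Co3 had 5679 and 7017 (0.28). mt-Co2, which receives electrons from cytochrome c, had 12230 and 13240 (0.09), the smallest difference among the 12 genes. By FPKM it ranked 3 among all genes of Foxf1fl/fl and 1 among those of αSMACreER;Foxf1-/-.

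Complex V receives mt-Atp6 and mt-Atp8, both part of its membrane sector. mt-Atp6 had 5237 FPKM in Foxf1fl/fl and 8546 in αSMACreER;Foxf1-/- (0.68), and mt-Atp8 had 2916 and 5592 (0.91). Both were past 1.5-fold, although their shared bases mean that the pair is not independent. Across the 12 genes the order of levels changed little between the libraries, with a Spearman correlation of 0.94. The range narrowed from 34.4-fold between mt-Co2 and mt-Nd5 to 18.6-fold between mt-Co2 and mt-Nd6.

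**Figure D2:**
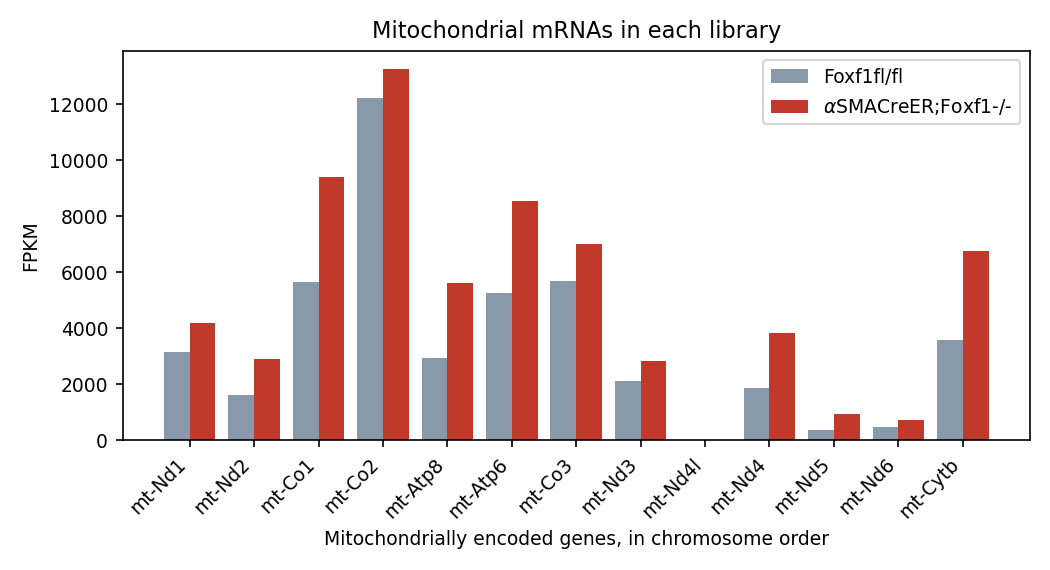
Bars give the FPKM of each mitochondrially encoded gene, in the order of the mitochondrial chromosome, in Foxf1fl/fl (grey) and αSMACreER;Foxf1-/- (red), with 1 library each and no error bars. All genes but mt-Nd4l, which is at 0, have a taller red bar. The bars show FPKM as deposited, and after scaling, which is not drawn, the differences range from 1.06-fold for mt-Co2 to 2.53-fold for mt-Nd5.

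Ribosomal RNAs from the same chromosome were not higher by the scaling used here. mt-Rnr1 had 667 FPKM in Foxf1fl/fl and 620 in αSMACreER;Foxf1-/- (-0.13, interval -0.19 to -0.07), and mt-Rnr2 had 366 and 320 (-0.22, -0.28 to -0.17). With equal sums of FPKM these differences became 0.07 and -0.02, so the direction of mt-Rnr1 depends on the scaling. The summed mRNA level was 43.4 times the summed rRNA level in Foxf1fl/fl and 70.1 times in αSMACreER;Foxf1-/-. These ratios describe the libraries and not the levels in cells. The part of rRNA capture during library preparation in the rRNA values was not tested. Of 22 mitochondrial tRNAs, mt-Tl1 was listed at 157 FPKM in Foxf1fl/fl and at 0 in αSMACreER;Foxf1-/-, and the others were listed at 0 in both. At 75 bases mt-Tl1 is no longer than 1 read, and it directly joins mt-Rnr2 and mt-Nd1. Its values are therefore not read as a difference.

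Nuclear copies of mitochondrial DNA can take up reads of these genes. In the annotated transcripts of M21, 99.5% of the 75-base words of mt-Co2, 99.9% of those of mt-Co3, 99.5% of mt-Atp6, 97.8% of mt-Nd3 and 98.7% of mt-Nd4l also occurred in other genes, chiefly pseudogenes on chromosome 1 such as Gm28661 (mt-Co2) and Gm28437 (mt-Co3). The read length was 75 bases, so a read from such a word cannot be assigned by sequence. For mt-Nd4 the share was 61.5% and for mt-Co1 39.8%. It was 5.71% for mt-Nd2 and 1.66% for mt-Nd5, and mt-Nd1, mt-Nd6, mt-Cytb and mt-Atp8 shared no word. The 4 measured genes with at least 90% shared words had differences from 0.09 to 0.68 (median 0.34), and the 6 genes under 10% had differences from 0.37 to 1.34 (median 0.86). Copies that are not annotated as transcripts were not searched, and Gm10222 and Gm10288, the only listed copies with an entry, were at 0 in both libraries. The part of read assignment in these differences was not tested.

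The nuclear subunits of complex I were examined next, by their place in the enzyme. Of 36 measured, 35 had a negative difference, 13 were lower and none was higher, with a median of -0.55. Over all genes 13.2% were lower. Among 1227 other protein-coding genes of 579 to 1241 bases, 1040 had a negative difference and 346 were lower. The 7 conserved core subunits, which bind the flavin and the iron-sulfur clusters and make up the peripheral arm, had a median of -0.37, and none passed 1.5-fold. Ndufs1, the largest iron-sulfur protein of this arm, was level, with 15.0 FPKM in Foxf1fl/fl and 15.3 in αSMACreER;Foxf1-/- (0.004, interval -0.20 to 0.21). Ndufv2 had 57.3 and 54.3 FPKM (-0.10, -0.24 to 0.03), and its interval also included 0. Ndufv1, which binds NADH and the flavin, had 76.0 and 56.8 (-0.45). Further core subunits included Ndufs3 with 45.5 and 33.7 FPKM (-0.46), Ndufs7 with 72.4 and 53.0 (-0.47) and Ndufs8 with 84.7 and 66.7 (-0.37).

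The 29 accessory subunits of complex I, which surround the core and are needed for its assembly and stability, all had a negative difference, and their median was -0.57. All 13 complex I genes that were lower belonged to this group. Ndufs5 had 120.3 FPKM in Foxf1fl/fl and 65.6 in αSMACreER;Foxf1-/- (-0.90, interval -1.11 to -0.69), the largest difference in the complex. Ndufb8, of the membrane arm, had 231 and 131 (-0.84, -0.98 to -0.70). Ndufa11 had 14.9 and 8.90 (-0.76) and Ndufa2 had 214 and 132 (-0.72). Ndufa2 and Ndufa3 were 2 of the most abundant members of the complex, and Ndufa3 had 329 and 227 FPKM (-0.57), below the threshold. The other 9 that were lower were Ndufa12, Ndufa13, Ndufb2, Ndufb3, Ndufb7, Ndufb9, Ndufb10, Ndufc2 and Ndufs6, with differences from -0.69 for Ndufs6 to -0.61 for Ndufa13. Of the 10 Ndufb genes, 6 were lower, against 13.2% of all genes and 346 of the 1227 other genes of similar length. Ndufb5, with 64.8 and 58.0 FPKM (-0.18), had the smallest difference of the accessory subunits.

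Complex II, which has no mitochondrially encoded subunit, had the median nearest to 0 by the scaling used here, an order that changed once the length trend was removed. Sdha, the flavoprotein that oxidizes succinate, had 71.2 FPKM in Foxf1fl/fl and 97.1 in αSMACreER;Foxf1-/-, a difference of 0.42 (interval 0.34 to 0.50), the most positive of all 79 nuclear subunits. The iron-sulfur protein Sdhb had 95.4 and 83.4 FPKM (-0.22). The membrane anchors Sdhc, with 123 and 112 FPKM (-0.16), and Sdhd, with 66.0 and 57.7 (-0.22), were close to it. None of the 4 passed 1.5-fold, and their median of -0.19 turned to 0.01 with equal sums of FPKM.

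The symbol rule took 8 nuclear subunits of complex III, and 3 of them were lower, against 13.2% of all genes and 346 of the 1227 other genes of similar length. It does not take the gene of cytochrome c1 (Cyc1), so this complex is not covered in full. Uqcrq, a small subunit bound to cytochrome b, had 438 FPKM in Foxf1fl/fl and 266 in αSMACreER;Foxf1-/- (-0.74, interval -0.82 to -0.67). Uqcrh, the hinge protein at the cytochrome c1 side, had 403 and 258 (-0.67). Uqcrfs1, the Rieske iron-sulfur protein, had 79.6 and 53.6 (-0.59). Between the core proteins the direction differed by the scaling used here: Uqcrc2 had 74.3 and 86.9 FPKM (0.20, 0.09 to 0.31) and Uqcrc1 had 77.6 and 69.7 (-0.18, -0.30 to -0.06). With equal sums of FPKM these differences became 0.40 and 0.02, so the direction of Uqcrc1 depends on the scaling. The small subunits Uqcr10, Uqcr11 and Uqcrb lay between -0.38 and -0.31. The median of the complex was -0.34.

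In complex IV all 15 measured nuclear subunits had a negative difference, with a median of -0.53, and 5 were lower. Of the 1227 other genes of similar length 1040 had a negative difference and 346 were lower, and over all genes 13.2% were lower. Cox6a1, the most abundant, had 490 FPKM in Foxf1fl/fl and 308 in αSMACreER;Foxf1-/- (-0.69, interval -0.80 to -0.59). Cox5b, which binds zinc, had 237 and 150.1 (-0.68), and Ndufa4, first described as a complex I protein and now placed with complex IV, had 236 and 155 (-0.63). Cox6b1 with 440 and 312 FPKM (-0.52) and Cox8a with 429 and 306 (-0.51) were also abundant and stayed below the threshold. Cox6c, with 254 and 193 FPKM, had the smallest difference (-0.42).

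Complex IV is also where tissue isoforms occur. Cox7a1 and Cox6a2, the isoforms of heart and skeletal muscle, were both lower, Cox7a1 with 7.19 and 2.25 FPKM (-1.66, interval -3.08 to -0.23) and Cox6a2 with 16.02 and 10.8 (-0.59, -1.09 to -0.10). The interval for Cox7a1 rests on about 14 and 5 reads. Its widely expressed partner Cox7a2 had 120.4 and 84.4 FPKM (-0.54), and the related Cox7a2l had 184 and 133 (-0.50). Cox7b had 132 and 94.2 FPKM (-0.51). The isoform Cox6b2 was at 3.16 and 2.20 FPKM, and Ndufa4l2 was at 5.06 and 3.58. Cox4i2 was at 0.446 and 0.533 FPKM, below the filter. Cox8b and Cox8c were listed at 0 in both libraries, and Cox7b2 was listed at 0 in Foxf1fl/fl and at 0.288 in αSMACreER;Foxf1-/-.

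Each of the 16 nuclear subunits of complex V had a negative difference by the scaling used here, and the median was -0.45. A negative difference was also found in 1040 of 1227 other protein-coding genes of 579 to 1241 bases. With equal sums of FPKM outside the mitochondrial chromosome Atp5a1 was at 0.01, Atp5b at -0.01 and Atp5c1 at 0.06. The direction of Atp5a1 and Atp5c1 thus depends on the scaling. The 5 measured genes of the catalytic head and its central stalk ranged from -0.67 to -0.21. Atp5b, the catalytic β subunit and the most abundant nuclear member of all, had 817 FPKM in Foxf1fl/fl and 688 in αSMACreER;Foxf1-/- (-0.27, interval -0.31 to -0.24). Atp5a1, the α subunit, had 284 and 243 (-0.25), and Atp5c1, the γ subunit of the rotating stalk, had 141 and 125 (-0.21). Atp5d, the δ subunit, had 220 and 169 FPKM (-0.40), and Atp5e, the ε subunit, had 552 and 354 (-0.67). The genes for the proton-carrying c ring had 119 and 81.6 FPKM for Atp5g1 (-0.57), 157 and 138 for Atp5g2 (-0.22) and 266 and 210 for Atp5g3 (-0.37). The 8 genes of the peripheral stalk and the membrane sector ranged from -0.72 to -0.34. Of these Atp5j2, with 202 and 125 FPKM (-0.72), and Atp5l, with 135 and 91.4 (-0.59), were lower, and the abundant Atp5j had 314 and 223 (-0.52).

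**Figure D3:**
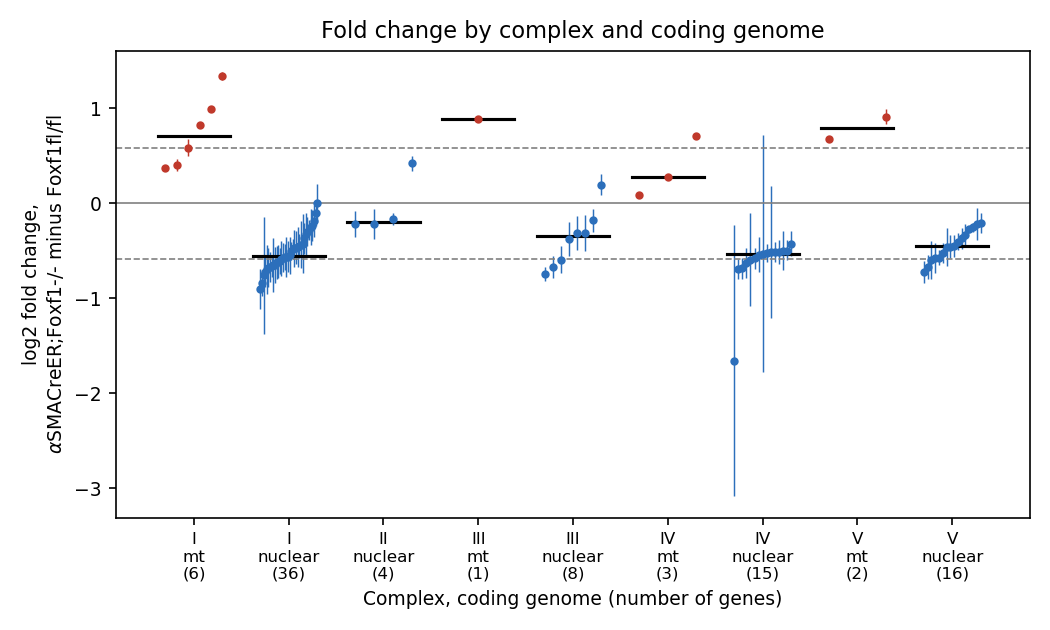
Log2 differences of the 91 measured subunit genes by complex and coding genome, with approximate 95% counting intervals as thin bars, medians as thick lines and 1.5-fold as dashed lines. In complexes I, III, IV and V all mitochondrially encoded genes (red) lie above all nuclear subunits (blue), and complex II has nuclear subunits alone. Other protein-coding genes of similar length, not drawn, also lay mostly below 0, with a median of -0.39.

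Within each complex the genes of both genomes did not overlap. The lowest mitochondrial against the highest nuclear difference was 0.37 against 0.004 in complex I, 0.89 against 0.20 in complex III, 0.09 against -0.42 in complex IV and 0.68 against -0.21 in complex V. Over all 12692 genes the upper quartile was 0.33. Most genes thus also lay below the lowest mitochondrial gene of complexes I, III and V, and the separation there is not particular to the nuclear subunits. Over all complexes 2 of 79 nuclear subunits, Sdha and Uqcrc2, were at or above the lowest mitochondrial gene, mt-Co2. Lying below mt-Co2 is not particular to the subunits. In 1227 other protein-coding genes of 579 to 1241 bases the median was -0.39 and the upper quartile -0.17. The ratio of summed mitochondrial to summed nuclear FPKM, which needs no scaling between libraries, was higher in αSMACreER;Foxf1-/- in each complex. It went from 2.69 to 6.15 in complex I, from 2.17 to 5.63 in complex III, from 7.79 to 14.2 in complex IV and from 1.89 to 4.34 in complex V. These are increases of 2.28-fold, 2.59-fold, 1.83-fold and 2.30-fold, and the increase over all complexes was 2.02-fold, from 3.48 to 7.02.

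**Figure D4:**
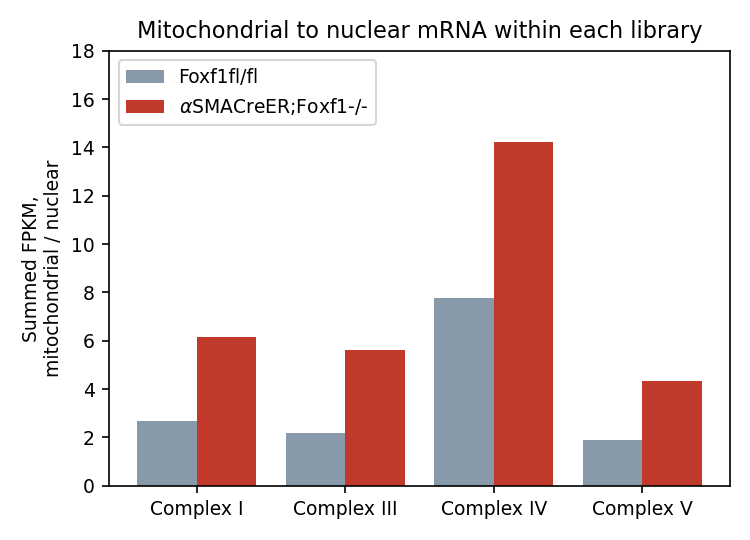
Bars give the summed FPKM of mitochondrially encoded genes divided by that of nuclear subunits of the same complex in Foxf1fl/fl (grey) and αSMACreER;Foxf1-/- (red), with 1 library each and no error bars. The ratio is higher in αSMACreER;Foxf1-/- in all 4 complexes, from 1.83-fold in complex IV to 2.59-fold in complex III.

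Transcript length moved with the nuclear result. Across the 11776 measured genes with an annotated principal transcript the difference followed its length, with a Spearman correlation of 0.53. Among the 79 nuclear subunits, which share both libraries and the length normalization of FPKM, it was 0.43. Nuclear subunits have short mRNAs, with a median of 838 bases. Other protein-coding genes in the middle range of these lengths (579 to 1241 bases) had a median of -0.39 over 1227 genes, with 346 lower and 40 higher. In the 302 of them with at least 50 FPKM in both libraries the median was also -0.39, and 41 were lower and none higher. The shortest nuclear subunits, up to 800 bases, had a median of -0.57 over 39 genes, against -0.47 in 431 other protein-coding genes of such length. From 800 to 1600 bases the medians were -0.50 over 24 subunits and -0.31 over 1939 other genes. Above 1600 bases they were -0.26 over 16 subunits and 0.11 over 9114 other genes, which reach far greater lengths.

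Genes were also sorted into 20 groups by principal transcript length and set against the median of their group, which was decided once the data had been seen. The nuclear median then became -0.11 with 2 subunits lower, and the mitochondrial median became 1.10. The difference between the 2 medians was then 1.21. Mitochondrially encoded mRNAs are as short as the nuclear ones, with a median of 870.5 bases, and all 12 lay above 0. Among them the difference also went with length, with a Spearman correlation of 0.45 over 12 genes of the same 2 libraries. The core subunits of the complexes have longer mRNAs than the others, with medians of 1653 and 681.5 bases. Their median difference was -0.25 over 15 genes, and that of the other nuclear subunits was -0.54 over 64, a grouping made after the values were seen. Length, fragmentation of RNA and genotype cannot be told apart in 1 library per genotype.

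**Figure D5:**
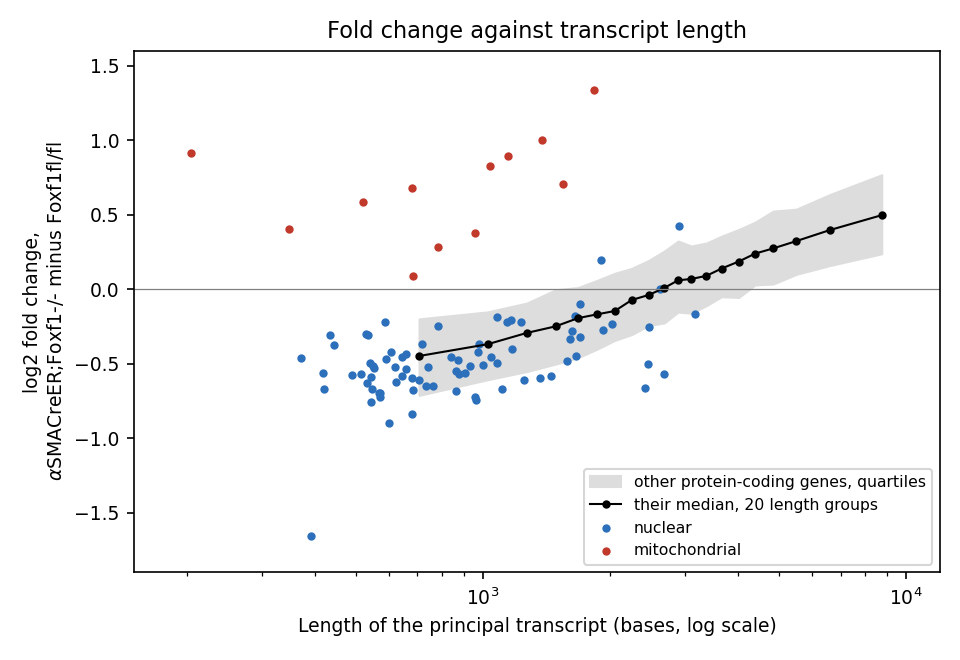
Log2 difference against the length of the principal transcript on a log scale for the nuclear subunits (blue) and mitochondrially encoded genes (red), with the median (black) and quartiles (grey) of other protein-coding genes in 20 length groups. The median of other genes goes from -0.45 in the shortest group to 0.50 in the longest. Most blue points lie at short lengths and negative values, and the red points lie above the band.

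Promoters of the nuclear subunits were searched for motifs known from respiratory genes, in windows from 250 bases before to 50 bases after the transcription start (RefSeq, GRCm38.p6). A window was found for 68 of 83 subunits, and some genes had more than 1, giving 73 windows. The NRF1 motif (GCGCA and GCGC separated by any 1 base), searched like the others on both strands, was present in 24.7% of these windows and in 4.60% of all 32851 windows. The ETS motif CCGGAAG, to which GABP binds, was present in 21.9% against 8.86%, and the YY1 motif AANATGGCG in 13.7% against 2.38%. Stretches of 60 bases around an NRF1 match are shown, with matches in capitals. In each complex the subunit of highest mean FPKM was taken among those with a match wholly before the transcription start. This sets Sdha, which was more abundant in αSMACreER;Foxf1-/-, beside genes that were less abundant.
Ndufa5 (complex I), chr6:24527682-24527741, minus strand: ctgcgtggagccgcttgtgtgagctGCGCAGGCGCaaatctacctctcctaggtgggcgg
Sdha (complex II), chr13:74350241-74350300, minus strand: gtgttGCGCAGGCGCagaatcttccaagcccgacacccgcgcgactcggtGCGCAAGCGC
Cox6a1 (complex IV), chr5:115349041-115349100, minus strand: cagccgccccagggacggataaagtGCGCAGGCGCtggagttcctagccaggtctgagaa
Atp5h (complex V), chr11:115420026-115420085, minus strand: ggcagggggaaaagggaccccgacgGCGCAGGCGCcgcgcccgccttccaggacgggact
Cox6a1 and Ndufa5 differed by -0.69 and -0.57, Atp5h, of the peripheral stalk, by -0.45 and Sdha by 0.42. Subunits with an NRF1 match had a median difference of -0.46 over 17 genes and those without one of -0.52 over 49. For ETS the medians were -0.49 and -0.52, and for YY1 they were -0.50 and -0.51. In complex III Uqcrc1 alone had an NRF1 match, which did not lie wholly before the start and is not shown. A match in these letters is not evidence of binding.

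Genes outside the complexes were counted from lists of related functions. Assembly factors help to build the complexes without staying in them. Of 44 measured, 31 had a negative difference, 8 were lower and 1 was higher, against 13.2% and 12.8% of all genes, with a median of -0.34. Cox17, a copper chaperone for complex IV, had 287 FPKM in Foxf1fl/fl and 137 in αSMACreER;Foxf1-/- (-1.09, interval -1.16 to -1.03). Coa3, also of complex IV assembly, had 48.4 and 23.3 (-1.08), and Uqcc2, of complex III assembly, had 87.3 and 56.2 (-0.66). Nubpl, an iron-sulfur protein for complex I, was the gene that was higher, at a low level of 1.17 and 2.99 FPKM. Of the 8 Ndufaf genes, 3 were lower (Ndufaf1, Ndufaf3 and Ndufaf6), with 2.18 to 14.9 FPKM over the 8 in Foxf1fl/fl and 1.57 to 10.8 in αSMACreER;Foxf1-/-. Atp5s had 0.580 and 1.68 FPKM.

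The 23 measured genes of mitochondrial gene expression and biogenesis included 3 that were higher and 3 that were lower, close to the 12.8% and 13.2% of all genes, and their median was 0.02. Polrmt, the mitochondrial RNA polymerase, was lower, with 16.9 FPKM in Foxf1fl/fl and 5.91 in αSMACreER;Foxf1-/- (-1.52, interval -1.74 to -1.30). Slirp, which binds mitochondrial mRNAs, had 68.7 and 40.1 (-0.80), and Fastkd2, of mitochondrial ribosome assembly, had 14.3 and 7.52 (-0.94). Mterf3, a factor of the MTERF family that acts on mitochondrial transcription, was higher, with 13.9 and 32.3 FPKM (1.19, 0.94 to 1.44). Gabpa, a subunit of the ETS factor GABP, had 15.3 and 25.5 (0.71), and Tfb2m, a mitochondrial transcription factor, had 2.85 and 4.96 (0.75). Tfam, which packages mitochondrial DNA, had 16.9 and 18.8 (0.13, -0.02 to 0.28). Ppargc1a, a coactivator of mitochondrial biogenesis, was near 0 in both libraries (0.0769 and 0.0344).

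The other metabolic lists had few genes past 1.5-fold. In the tricarboxylic acid cycle 1 of 16 was lower, against 13.2% of all genes, with a median of -0.02. It was Fh1, fumarase, with 34.7 FPKM in Foxf1fl/fl and 17.6 in αSMACreER;Foxf1-/- (-0.997). Among the genes for mobile carriers and exchange 4 of 20 were lower, against 13.2% of all genes, and the median was -0.22. These were Etfb, an electron transfer flavoprotein subunit, with 128 and 70.03 FPKM (-0.90), Sqor, which oxidizes sulfide, with 37.5 and 24.3 (-0.65), and the coenzyme Q genes Coq4 and Coq5. In glycolysis 1 of 17 was lower (Aldoc), against the same 13.2%, and the median was -0.09. None of the genes of these 3 lists was higher, against 12.8% of all genes.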

How the data were processed

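RNA-seq was performed on hepatic stromal cells isolated from CCl4-treated mice, with 1 pooled library per genotype (TruSeq RNA kit, single-end reads of 75 bases, about 10 M reads stated). The authors deposited Cufflinks FPKM values per Ensembl gene. The submitters' processing notes name TopHat, DESeq and mm10, and the study's methods describe removal of duplicate and non-primary alignments for a separate quantification in Avadis NGS. For the FPKM values, software versions, strand setting and treatment of multiply mapped reads are not given in the sources used here.

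Entries were joined on identifier and locus. GENCODE M21 gave a symbol to 36490 of 38320 (95.2%). Entries above 0 numbered 18112 in Foxf1fl/fl and 18854 in αSMACreER;Foxf1-/-, and 3 entries with a status other than OK were left out. For a repeated symbol the entry with the highest mean was kept. FPKM in αSMACreER;Foxf1-/- was divided by 1.018, the median ratio over 12016 genes, and log2 was taken after adding 0.1, which understates the change of low genes. Genes with a mean FPKM below 1 were not counted, and the 1.5-fold threshold follows the study.

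FPKM holds no counts, so the depth had to be estimated. The spacing of low values gave about 9790000 and 11280000 mapped reads, with 47.0% and 49.8% of low values within 0.1 of a whole read, so that intervals are approximate and cover counting error only. Reads were placed on principal (APPRIS) transcripts with assumed fragments of 200 ± 80 bases. The scaling, the 1.5-fold calls and the removal of the length trend by longest transcript were tested on simulated data. The depth estimate and the intervals were not. Scripts ran in Python 3.11.15 with pandas 2.3.3, numpy 2.4.6, matplotlib 3.10.9 and scipy 1.17.1.

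Members and lists were chosen with earlier results of these data known. Genes named were all mitochondrially encoded genes, Sdha to Sdhd, the most abundant subunits and the largest changes of each complex, core subunits, tissue isoforms and members past 1.5-fold at a mean FPKM of at least 10. For other lists up to 4 such genes, Ppargc1a and Tfam were named, and further genes were named after their values were seen. 1 gene taken by this rule is not reported here by name. Ndufa4 and Ndufa4l2 were placed with complex IV. Alternatives changed the pseudocount, scaling, filter, threshold, treatment of repeated entries and length.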

Additional observations from a re-analysis of the deposited data

How the results depend on the processing

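No paired analysis was possible because there was only 1 library of either genotype, and no library could be left out for the same reason. The difference between the mitochondrial and nuclear medians stayed between 1.18 and 1.21 under all alternatives, and the mitochondrial median stayed positive and the nuclear median negative. That steady difference is not a separate test, because scaling shifts both medians alike. Removing the length trend also shifts them nearly alike, as the 2 groups have similar median lengths (870.5 and 838 bases). With values as deposited or upper-quartile scaling the mitochondrial median was 0.72. With equal sums of FPKM the mitochondrial median was 0.90 and the nuclear median -0.31, with -0.35 in complex I, 0.012 in complex II, -0.14 in complex III, -0.33 in complex IV and -0.25 in complex V, and 3 nuclear subunits were lower and 1 (Sdha) higher. With equal sums outside the mitochondrial chromosome these values were 0.96, -0.25, -0.29, 0.073, -0.079, -0.27 and -0.19, with 2 lower and 1 higher. After scaling by protein-coding genes in the length range of the nuclear subunits, chosen after seeing the data, the mitochondrial median was 0.85, the nuclear median -0.35, complex II -0.034, complex IV -0.38 and complex V -0.30, with 5 nuclear subunits lower. With the length trend removed by longest transcript the mitochondrial median was 1.05, the nuclear median -0.16 and complexes I to V -0.20, 0.13, -0.028, -0.17 and -0.11, with 6 lower. With length groups of protein-coding genes these were 1.10, -0.10, -0.13, 0.14, 0.003, -0.13 and -0.076, with 7 lower. With principal transcript length, chosen after seeing the data, these were 1.10, -0.11, -0.16, 0.079, 0.058, -0.12 and -0.11, with 2 lower. At a 2-fold threshold 1 nuclear subunit was lower (Cox7a1) and 1 mitochondrially encoded gene higher (mt-Nd5). Without a filter on low values 1 nuclear subunit was higher (Cox7b2, listed at 0 in Foxf1fl/fl). Without 5 subunits that have a named pseudogene the nuclear share of FPKM was 1.57% and 1.30%. The cause of these changes was not tested. The lack of replicates and the estimated depth both limit these values.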
